A study of Mus musculus with 28 samples.

Results

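Rad21, a core subunit of the cohesin ring, was mapped by chromatin immunoprecipitation and sequencing in mature olfactory sensory neurons of mice, and its peaks are set here against those of CTCF in the same kind of neuron. The Rad21 regions were found by linking the peaks of the 2 Rad21 libraries that overlapped by at least 1 base and keeping those with a peak in both, on chromosomes 1 to 19, X and Y. This gave 9881 Rad21 regions, of 69092 regions with a peak in any of the 7 Rad21, CTCF and Ldb1 lists from control neurons, and the same rule gave 24877 CTCF regions. Both factors come from mice of the genotype OMP-IRES-GFP, in which GFP is made under the control of the Omp gene, so that mature neurons can be sorted by their fluorescence, and the cells were fixed with formaldehyde before sorting. Each factor has 2 libraries, Rad21 with an Abcam antibody and CTCF with a Millipore antibody, and the labels do not say whether the libraries came from separate animals, so that the spread between them may be technical. Of the 28 samples of the series, these 4 are described here, with the 3 control Ldb1 libraries (a cofactor of the homeodomain factor Lhx2) for context; the RNA-seq samples are not analysed here. Peak lists alone cannot check the identity of the sorted cells. In a bulk population, fewer cells with a bound site and less binding per cell cannot be told apart.

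Cohesin is a ring-shaped complex that holds DNA strands together and extrudes loops of chromatin. CTCF is a zinc finger protein that binds a long, directional DNA motif and stops the extruding ring, so that cohesin gathers at CTCF sites and loops form between motifs that point towards each other. In published maps of other cells the cohesin signal lies slightly towards the 3′ side of the CTCF motif, the side of the N-terminus of the bound protein. In olfactory neurons chromosome folding has been studied mainly because each neuron transcribes a single odorant receptor gene, chosen with the help of distant enhancers.

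The promoters printed here lay under the strongest Rad21 regions that also held CTCF and a match to the core of the CTCF motif. A match was required for this choice, so that they do not stand for all co-occupied promoters. Most co-occupied promoter windows held no such match, as given below. The core was searched on both strands as CCA, any 2 bases, AG, any 2 bases, GGC, which is 12 bases long. The sequences are RefSeq promoter sequence of the build GRCm38.p6, written 5′ to 3′ on the strand of the gene and ending before the gene's start. Capitals mark the match, which reads from CCA where it lies on the strand of the gene, and from GCC where it lies on the opposite strand. The windows are chr16:18696572-18696643 upstream of Gm41429, chr17:5440392-5440463 upstream of Tmem242, chr2:119288633-119288704 upstream of Vps18, chr5:116123489-116123560 upstream of C330018A13Rik, chr7:120670307-120670378 upstream of Pdzd9 and chr13:113618672-113618743 upstream of Snx18.
Gm41429 (+): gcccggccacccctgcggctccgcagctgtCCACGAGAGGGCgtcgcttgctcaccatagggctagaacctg
Tmem242 (-): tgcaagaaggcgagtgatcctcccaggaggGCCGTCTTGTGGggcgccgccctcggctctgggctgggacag
Vps18 (+): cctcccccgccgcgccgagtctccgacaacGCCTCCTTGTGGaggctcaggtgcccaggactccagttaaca
C330018A13Rik (+): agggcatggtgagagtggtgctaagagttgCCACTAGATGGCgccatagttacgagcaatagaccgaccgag
Pdzd9 (-): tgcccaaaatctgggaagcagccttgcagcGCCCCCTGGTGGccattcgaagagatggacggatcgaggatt
Snx18 (-): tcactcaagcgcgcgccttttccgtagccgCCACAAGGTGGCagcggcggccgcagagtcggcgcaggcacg

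For comparison, the strongest Rad21 regions over a promoter with no CTCF peak in either library lay upstream of Chaserr, a long noncoding RNA gene, at chr7:73558512-73558583, and of Schip1 at chr3:68572296-68572367. Neither promoter window of 300 bases, of which 72 bases are shown, held a match to these letters, which says nothing about other forms of the motif.
Chaserr (-): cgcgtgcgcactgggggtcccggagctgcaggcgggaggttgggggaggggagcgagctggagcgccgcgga
Schip1 (+): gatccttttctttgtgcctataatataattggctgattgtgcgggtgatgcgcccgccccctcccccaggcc

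Among 32851 promoter windows of the table, which run from 250 bases before to 50 bases after a gene's start, 797 or 2.43% held the core motif. Of the 532 windows under both a Rad21 region and a CTCF region, 104 held it, a share of 19.5% with a Wilson 95% interval of 16.4 to 23.1%. Of the 315 windows under a CTCF region with no Rad21 peak, 38 held it, a share of 12.1% with an interval of 8.92 to 16.1%, so that the intervals of these kinds of CTCF promoter lay just apart, with no test made. Windows with a peak of Rad21 replicate 2 and no CTCF peak held the motif in 50 of 2504 cases, or 2.00%, close to the share over all windows. Windows with a peak of Rad21 replicate 1 and no CTCF peak held it in 3 of 73 cases, or 4.11%, with an interval of 1.41 to 11.4%. All such intervals cover counting error alone, since regions are not replicates.

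Rad21 peaks were centred to the 3′ side of the motif and CTCF peaks on it. Offsets were measured along the motif, from the centre of the match to the centre of the peak over it, at windows with a single match, with positive values towards the GGC end. The median offset was 12 bases in Rad21 replicate 1 (91 matches) and 21.5 bases in Rad21 replicate 2 (224 matches), against -6 bases in CTCF replicate 1 (183 matches) and -2 bases in CTCF replicate 2 (246 matches). Both Rad21 medians lay above both CTCF medians, and the difference of their means was 20.75 bases (Rad21 16.75 ± 6.72 bases, CTCF -4 ± 2.83 bases, SD, n = 2 libraries each). The exact two-sided permutation test over the 4 libraries gave p = 0.33, the smallest value that 2 against 2 can reach. A peak centre lay on the 3′ side at 70.3% of the matches in Rad21 replicate 1 and 76.3% in Rad21 replicate 2, against 37.7% in CTCF replicate 1 and 47.6% in CTCF replicate 2.

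The same held at single sites. Of the matches, 84 lay under a peak of all 4 libraries, and there the medians were 13 and 18.5 bases in Rad21 replicates 1 and 2, against -6.5 and -3 bases in CTCF replicates 1 and 2. At 67 of these 84 sites, or 79.8%, the mean Rad21 centre lay further to the 3′ side than the mean CTCF centre, with a median distance of 18.25 bases. The direction did not depend on the gene's own strand: where the motif lay on the strand of the gene the medians were 9.5 and 23 bases for Rad21 and -9.5 and 0.5 bases for CTCF, and where it lay on the other strand they were 20 and 14 bases for Rad21 and 4 and -9 bases for CTCF. At the C330018A13Rik match printed above the Rad21 centres lay at 6 and 25 bases and the CTCF centres at 0 and 8 bases, and at the Pdzd9 match the Rad21 centres lay at 28 and 20 bases and the CTCF centres at 10 and -21 bases. The order of single libraries was not the same at every printed match. At Snx18 the Rad21 centres lay at 7 and 16 bases and the CTCF centres at -6 and 19 bases, and at Gm41429 the Rad21 centres lay at -14 and 15 bases and the CTCF centres at -17 and -12 bases. At Vps18 the Rad21 centres lay at 66 and 39 bases and the CTCF centres at 30 and 12 bases. The Tmem242 match lay far from the centres of both factors, at 135 bases in Rad21 replicate 1, with no peak of Rad21 replicate 2 over it, and at 127 and 108 bases in the CTCF libraries. The offsets could be measured in promoter windows alone, and they were looked for after the lists had been seen.

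**Figure D1:**
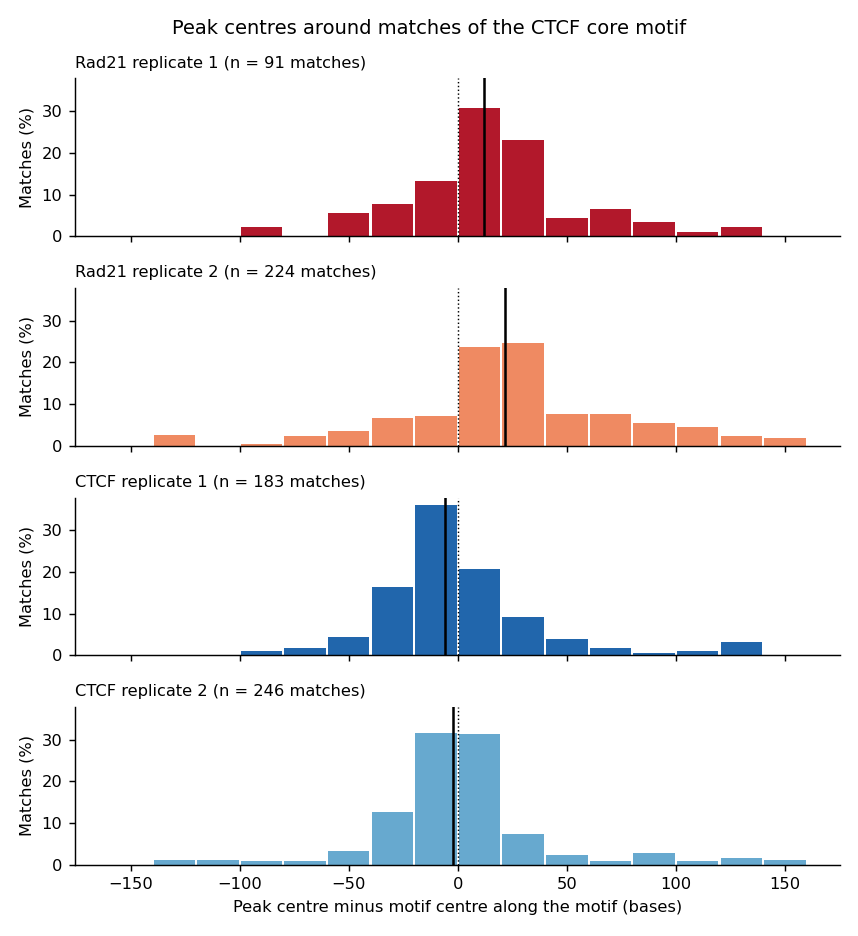
Share of motif matches (vertical axis, %) by the distance of the peak centre from the motif centre (horizontal axis, bases, positive towards the 3′ side of the motif), in bins of 20 bases, for Rad21 replicates 1 and 2 and CTCF replicates 1 and 2 from top to bottom. The solid line is the median, 12 and 21.5 bases for Rad21 and -6 and -2 bases for CTCF, and the dotted line marks the motif centre.

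Nearly all Rad21 regions lay at CTCF, whereas many CTCF regions had no Rad21. A CTCF region overlapped 9143 of the 9881 Rad21 regions, or 92.5%, and a peak of at least 1 CTCF library overlapped 9501, or 96.2%. Conversely, 36.8% of the CTCF regions overlapped a Rad21 region, 37.9% a peak of Rad21 replicate 1 and 65.7% a peak of Rad21 replicate 2. No Rad21 peak of either library was found at 8248 CTCF regions, or 33.2%. The shares depended on list length: with the 4 lists limited to their 10487 strongest peaks, 61.2% of the Rad21 regions lay at a CTCF region and 61.03% of the CTCF regions at a Rad21 region. Without Rad21 replicate 1, 58.0% of the peaks of Rad21 replicate 2 lay at a CTCF region and 65.7% of the CTCF regions had such a peak.

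The lists behind these shares differed in length and score. Rad21 replicate 1 held 10487 peaks of 278 bases with scores of 10 to 74, and Rad21 replicate 2 held 28151 peaks of 304 bases with scores of 10 to 234. CTCF replicate 1 held 27609 peaks of 344 bases with scores of 11 to 251, and CTCF replicate 2 held 34210 peaks of 292 bases with scores of 13 to 445. Scores are the authors' own, with no unit given, and are used as percentiles within a list, where 100 is the strongest peak. The lists carry no read numbers, so that sequencing depth is unknown.

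Co-occupancy followed rank within the list, weakly for Rad21 regions found in both libraries and steeply for CTCF regions. The weak slope did not hold for all peaks of Rad21 replicate 2. In 10 bins of its score, the share at a CTCF region ran from 96.9% in the strongest to 32.1% in the weakest. Regions were ordered by their mean percentile over both libraries of their factor and split into 10 bins of equal size. CTCF regions were found at 99.4% of the Rad21 regions of the strongest bin, 94.6% of bin 5 and 82.0% of the weakest bin. Rad21 regions were found at 80.0% of the CTCF regions of the strongest bin, 41.4% of bin 5 and 2.17% of the weakest bin, a gap of 77.9 percentage points from end to end. Peaks of Rad21 replicate 2 were found at 93.6% of the strongest bin of CTCF regions, 73.9% of bin 5 and 22.1% of the weakest, and peaks of Rad21 replicate 1 at 80.5%, 43.0% and 2.53%. Control Ldb1 regions ran the other way along the Rad21 bins, from 6.47% in the strongest to 11.6% in the weakest, and lay at 6.19% of the strongest and 2.61% of the weakest CTCF bin. The gap along the CTCF bins was 53.9 points with the strongest 50% of each list and 35.9 points with lists of 10487 peaks, settings that leave out the weakest CTCF peaks.

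**Figure D2:**
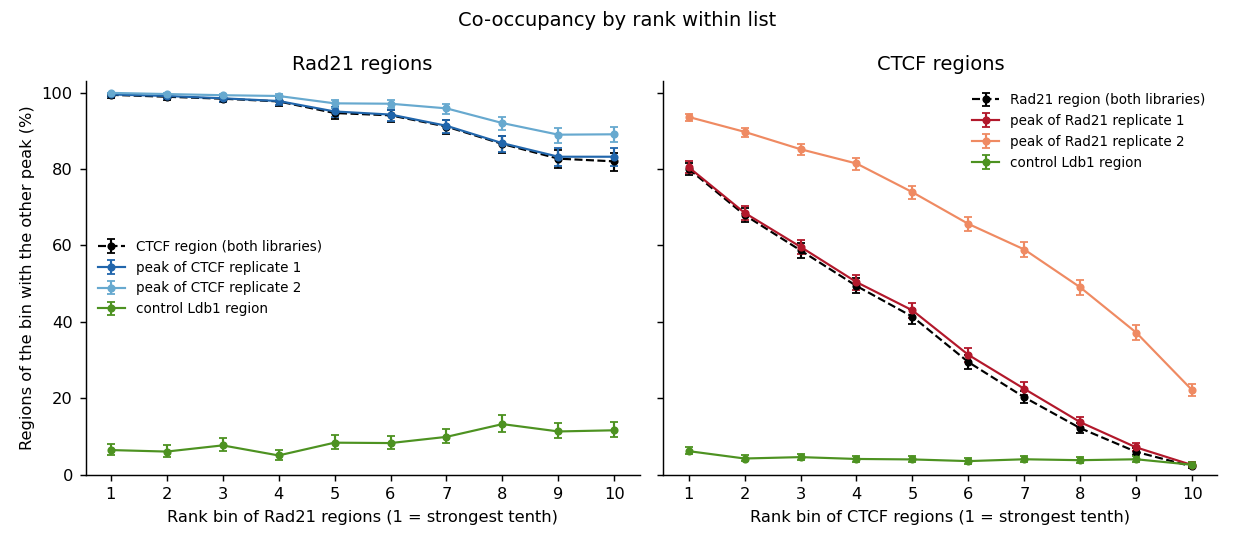
Share of the regions of a rank bin (vertical axis, %) that overlap the other factor, for Rad21 regions (left) and CTCF regions (right), by bin from the strongest (1) to the weakest (10); bars are Wilson 95% intervals, and control Ldb1 regions are shown for scale. The share of Rad21 regions at a CTCF region stays between 99.4% and 82.0%, and the share of CTCF regions at a Rad21 region runs from 80.0% to 2.17%.

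At the top of the lists a Rad21 and a CTCF library had few peaks in common, fewer than the Rad21 libraries had with each other. Among the 1000 strongest peaks of each list, Rad21 replicates 1 and 2 shared 57.0% and CTCF replicates 1 and 2 shared 35.0%, while a Rad21 list and a CTCF list shared 17.3 to 30%, with the highest value between the replicates 2. Among the 5000 strongest peaks the Rad21 libraries shared 72.1% and the CTCF libraries 56.4%, and pairs of a Rad21 and a CTCF list shared 42.5 to 56.2%. Among 10487 peaks the Rad21 libraries shared 73.5%, the CTCF libraries 73.8%, and pairs across the factors 55.0 to 64.4%. At every length the Rad21 pair shared more peaks than any pair across the factors, whereas the CTCF pair shared fewer than Rad21 replicate 2 and CTCF replicate 2 at 2500 peaks (42.8% and 45.4%).

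At the 9140 sites with exactly 1 peak in each of the 4 libraries, the ranks of the sites were compared between libraries by Spearman's rho, as a description over sites that share libraries. It was 0.69 between Rad21 replicates 1 and 2 and 0.60 between CTCF replicates 1 and 2. Across the factors it was 0.35 between the replicates 1, 0.42 between Rad21 replicate 1 and CTCF replicate 2, 0.28 between Rad21 replicate 2 and CTCF replicate 1, and 0.57 between the replicates 2. The value for the replicates 2 was close to that within CTCF.

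**Figure D3:**
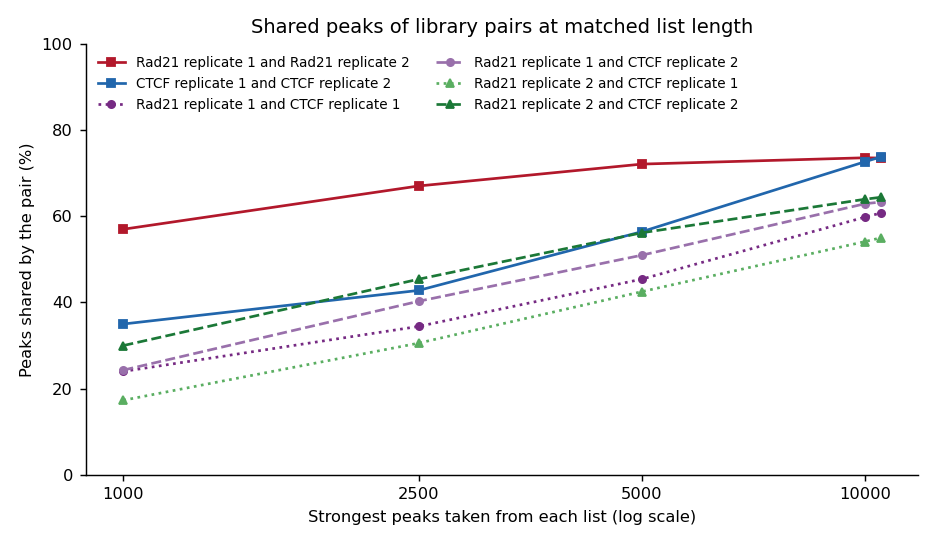
Share of peaks that a pair of libraries has in common (vertical axis, %) when each list is limited to the same number of its strongest peaks (horizontal axis, log scale). The Rad21 pair lies between 57.0% and 73.6% and above all pairs across the factors, and the CTCF pair runs from 35.0% to 73.8%.

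Where a Rad21 peak and a CTCF peak overlapped, their centres lay close together. The median distance between centres was 28 to 30 bases in the 4 pairs across the factors, against 25 bases between the Rad21 libraries and 19 bases between the CTCF libraries. Between Rad21 and CTCF regions, whose centres average both libraries, the median was 22.5 bases over 9143 pairs, and 89.0% of the pairs lay within 50 bases. These distances have no direction, and the peaks are 278 to 344 bases wide.

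The 10 strongest Rad21 regions all held CTCF peaks of both libraries. The strongest, at chr7:120203828-120204147 within 1 kb of an end of Abca14, a gene of the lipid transporter family, had percentiles of 100 and 99.97 in the Rad21 libraries and 99.5 and 99.95 in the CTCF libraries. The region at chr12:104939725-104940028 in Syne3, which encodes a protein of the outer nuclear membrane, had 99.8 and 99.9 in the Rad21 libraries but 74.2 and 92.2 in the CTCF libraries. Others lay in Faap20 and Ppargc1b, in or near the long noncoding RNA genes Gm40715, Gm46926, Gm17762 and Gm33669, and 25.2 kb from Gm32806. Of the 10, the region at Gm17762 alone also held a control Ldb1 region.

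Among regions in both Rad21 libraries, those without a CTCF peak in either library were few, 380 or 3.85%, and mostly held Ldb1. The peaks of Rad21 replicate 2 taken alone were less tied to CTCF. Of its 28151 peaks, 71.9% lay at a peak of either CTCF library, and 15.0% at neither a CTCF peak nor a control Ldb1 region. A control Ldb1 region lay at 278 of the 380 regions, or 73.2%, against 5.42% of the Rad21 regions at a CTCF region. The median distance between neighbours among these 380 regions was 2851 kb, a value that depends on how few they are. The median distance to the nearest CTCF region was 20.5 kb, with 31.8% of them within 10 kb. Their mean percentiles over both Rad21 libraries ended at 89.4, against 99.98 over all Rad21 regions. The highest, at chr18:82954181-82954484 in the zinc finger gene Zfp516, had percentiles of 80.8 and 98.0 in the Rad21 libraries. Next to it stood one of the strongest CTCF regions without a Rad21 peak, at chr18:82953816-82954159, with 99.3 and 99.3 in the CTCF libraries, so that these neighbours did not overlap and count as separate regions. The second, at chr19:45221186-45221504, lay 11.2 kb from Lbx1, a homeobox gene of spinal cord and muscle precursors, with 88.1 and 90.2 in the Rad21 libraries. Others lay in Ptprg, a receptor tyrosine phosphatase gene, and at an end of Ncam1, the gene of a neural cell adhesion molecule, both at a control Ldb1 region. The Ncam1 region, at chr9:49798821-49799186, had percentiles of 72.4 and 85.4 in the Rad21 libraries. The rest lay in the long noncoding RNA gene Gm34264, within 1 kb of Atg101, an autophagy gene, 4.42 kb from Abcc12, 12.4 kb from Tiam1, 58.9 kb from Gm25633 and 69.5 kb from Gm42340.

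CTCF regions without any Rad21 peak reached the top of the CTCF lists. The strongest, at chr14:73509760-73510107 at an end of Med4, which encodes a subunit of the Mediator complex, had percentiles of 99.9 and 99.9 in the CTCF libraries. The second, at chr2:119546936-119547279 at an end of Exd1, had 99.9 and 99.8. Of the other 8, 3 lay on chromosome Y in or within 1 kb of the long noncoding RNA gene Gm33272, and the rest in or within 1.02 kb of Gm40017, Zfp516, Opalin (a myelin gene), Psmd6 (a proteasome subunit gene) and Dus3l. The median distance from a CTCF region without Rad21 to the nearest Rad21 region was 52.6 kb, with 15.6% within 10 kb.

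At gene ends and over gene bodies, the libraries of 1 factor differed more at matched length than the means of Rad21 and CTCF did. Among the 10487 strongest peaks of each list, 19.1% and 25.1% of the peaks of Rad21 replicates 1 and 2 lay within 1 kb of a gene end, against 17.99% and 25.7% of those of CTCF replicates 1 and 2. The means were 22.1 ± 4.27% for Rad21 and 21.9 ± 5.47% for CTCF (SD, n = 2 each), a difference of 0.21 points (exact two-sided permutation test, p = 1). Gene bodies were overlapped by 59.9% and 64.0% of the Rad21 peaks, against 59.0% and 62.9% of the CTCF peaks, a difference of 0.98 points (exact permutation test, p = 0.667). Starts of genes in the promoter table lay within 1 kb of 10.7% and 16.5% of the Rad21 peaks and 8.80% and 15.3% of the CTCF peaks, and the far ends of the same genes within 1 kb of 5.01% and 5.33% of the Rad21 peaks and 5.59% and 6.51% of the CTCF peaks. At the far ends alone both Rad21 values lay below both CTCF values, with no test made. In both factors replicate 2 was the library with more peaks at gene starts. The direction of the first difference turned to -4.27 points in lists cut to 50% of that length and to -1.90 points within 5 kb of a gene end, and that of the second to -2.70 points in the shorter lists.

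Among regions, those with Rad21 and no CTCF peak and those with CTCF and no Rad21 peak parted from each other at gene starts. Most of the former, 278 of 380, lay at a control Ldb1 region. Of the 380 Rad21 regions without CTCF, 16.6% lay within 1 kb of a promoter-table start and 1.84% within 1 kb of the far end, and 69.7% overlapped a gene body. Of the 8248 CTCF regions without Rad21, 7.18% lay within 1 kb of such a start, 4.51% within 1 kb of the far end, and 61.9% overlapped a gene body. Rad21 regions at a CTCF region lay between these at starts, with 9.68%, but not at far ends, with 5.35%, nor over gene bodies, with 59.7%. These are shares over regions of pooled lists, with no test.

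Neighbouring Rad21 regions were 84.4 kb apart in the median, and neighbouring CTCF regions 35.1 kb. With lists of 10487 peaks the medians were 82.4 and 66.3 kb in Rad21 replicates 1 and 2, against 83.4 and 62.1 kb in CTCF replicates 1 and 2, a difference of means of 1.59 kb (exact two-sided permutation test, p = 1). The groups overlapped, and replicate 2 of each factor was the more closely spaced. The difference was 25.5 kb with the lists as deposited and 12.9 kb with lists of 50% of the matched length.

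Along the chromosomes the ratio of Rad21 to CTCF regions was even, except on X and Y. On the 19 autosomes there were 36.1 to 43.3 Rad21 regions per 100 CTCF regions. On X there were 83 Rad21 regions and 584 CTCF regions, or 14.2 per 100, and on Y no Rad21 region and 10 CTCF regions. A Rad21 region lay at 13.7% of the CTCF regions on X, against 33.0 to 39.6% on the autosomes. Both Rad21 libraries had the lower share: Rad21 replicate 1 had a peak at 14.9% of the CTCF regions on X and 38.5% of those on the autosomes, and Rad21 replicate 2 at 47.3% on X and 66.1% on the autosomes. The Rad21 regions that X did have lay at CTCF, 96.4% of them, against 88.8 to 94.8% on the autosomes.

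CTCF regions on X ranked, in the median, below the middle of both CTCF lists. Rad21 regions on X ranked below the middle of the list of Rad21 replicate 1. X held 0.868% and 1.55% of the peaks of Rad21 replicates 1 and 2 as deposited, against 2.75% and 2.16% of the peaks of CTCF replicates 1 and 2. Among the 10487 strongest peaks of each list, X held 0.868% and 0.963% of the Rad21 peaks, against 1.13% and 0.629% of the CTCF peaks, so that the factors overlapped. The 584 CTCF regions of X had median percentiles of 40.1 and 44.0 in the CTCF libraries. The 83 Rad21 regions of X had 27.9 and 72.0 in the Rad21 libraries. These 83 needed a peak in both Rad21 libraries. Replicate 1 held 97.4% of the strongest score bin of replicate 2 and 3.98% of the weakest. That rule places such regions high in the list of Rad21 replicate 2, so that 72.0 does not show strong regions on X. In CTCF rank bin 3, 7 of 19 regions on X had a Rad21 region, or 36.8%, against 58.9% of 2468 on the autosomes. Bins 1 and 2 held few regions of X. A Rad21 region lay at 2 of 4 in bin 1 and 2 of 6 in bin 2, against 80.3% and 68.05% on the autosomes. The part of rank in the lower share on X was not tested further, and the number of X copies per cell is not given in the sources used here.

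**Figure D4:**
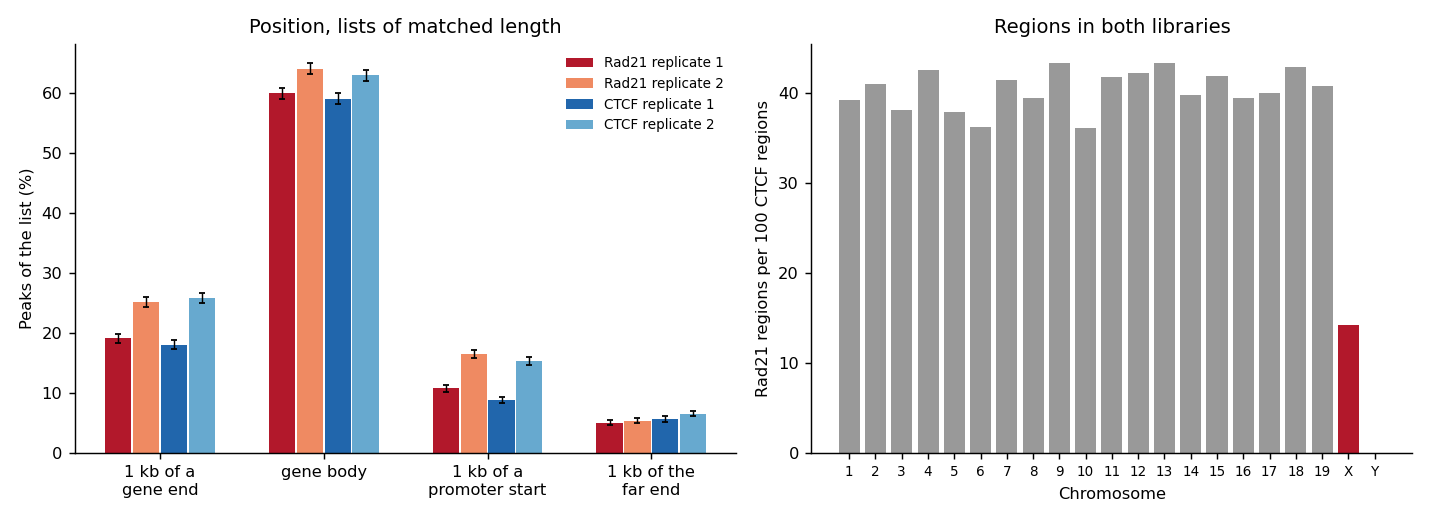
Left, share of the 10487 strongest peaks of each library (vertical axis, %) at 4 positions relative to genes, Rad21 replicates 1 and 2 and then CTCF replicates 1 and 2, with Wilson 95% intervals. Right, Rad21 regions per 100 CTCF regions on each chromosome, 36.1 to 43.3 on the autosomes, 14.2 on X and 0 on Y.

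The long Rad21 list, of replicate 2, added peaks of another make-up to those it shared with the short list of replicate 1. It held a peak at 9881 of the 10487 peaks of the short list, or 94.2%, and 18270 peaks of its own. Of its own peaks, 39.4% lay at a CTCF region and 58.7% at a peak of either CTCF library, against 92.5% and 96.1% of the shared peaks. A control Ldb1 region lay at 24.4% of its own peaks, against 8.70% of the shared ones. Gene ends lay within 1 kb of 35.4% of its own peaks and 19.4% of the shared ones, and starts in the promoter table within 1 kb of 28.0% and 10.9%, while the far ends of the same genes lay near 4.71% and 5.09%. Of its own peaks, 22.5% lay at neither a CTCF peak nor a control Ldb1 region, against 1.12% of the shared ones.

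The differences were also present in shorter lists and within bins of score. In lists cut to 10487 peaks each, the long list had 2777 peaks outside the short list, of which 53.9% lay at a CTCF region, 25.5% at a control Ldb1 region and 38.6% near a gene end, against 94.2%, 8.39% and 20.2% of its 7710 shared peaks, which lay more often in the stronger score bins. Split into 10 bins by score, the share of the long list found in the short list ran from 97.4% in the strongest bin to 3.98% in the weakest, and the share at a CTCF region from 96.9% to 32.1%. Within bin 1, 60.3% of the 73 peaks of the long list alone lay at a CTCF region, against 97.9% of the shared peaks, and 56.2% lay near a gene end, against 22.7%. Within bin 4 the shares at a CTCF region were 49.4% and 88.2%, and within bin 10 they were 30.1% and 82.1%. Thus a peak of the long list that the short list also held lay at CTCF in 78.1 to 97.9% of cases in every bin. The reverse set was small, 606 peaks of the short list alone, of which 48.7% lay at a CTCF region, 21.3% at a control Ldb1 region and 16.3% near a gene end. The cause of the difference between the Rad21 libraries, depth and threshold included, was not tested.

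**Figure D5:**
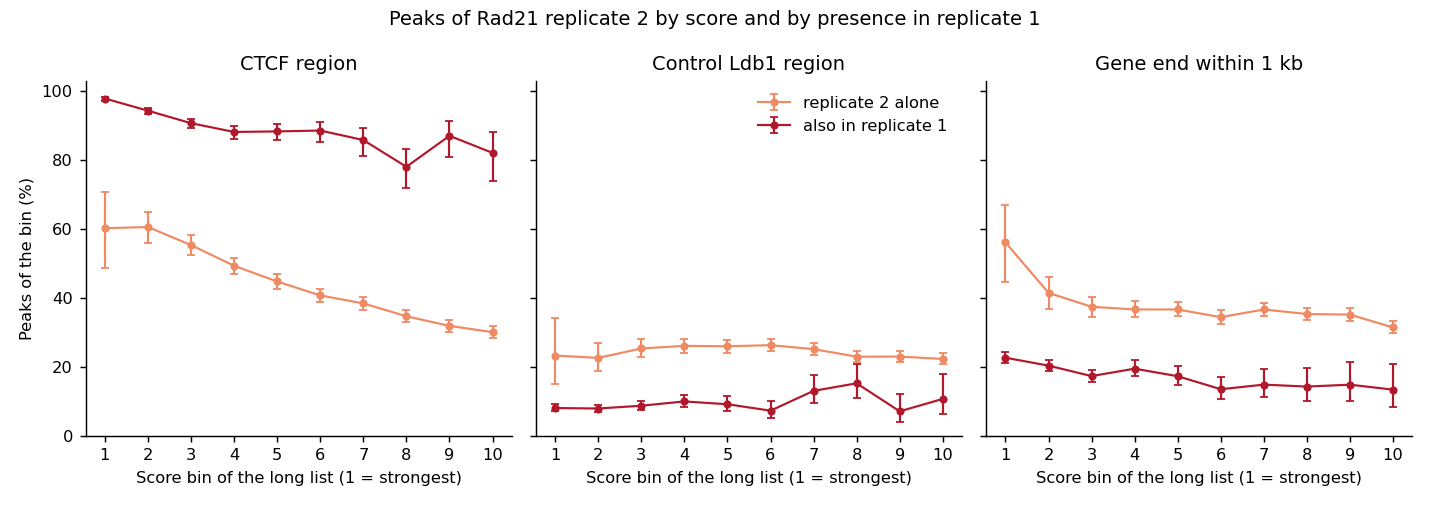
Share of the peaks of Rad21 replicate 2 (vertical axis, %) at a CTCF region, at a control Ldb1 region and within 1 kb of a gene end, by score bin from the strongest (1) to the weakest (10), for peaks of that list alone and peaks also in replicate 1; bars are Wilson 95% intervals. In each bin the peaks of replicate 2 alone lie below the shared peaks for CTCF (60.3% and 97.9% in bin 1) and above them for gene ends.

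Near genes, a Rad21 region lay within 1 kb of an end of 1454 of 21776 protein-coding genes, or 6.68%, and a CTCF region of 15.3%. A Rad21 region that held a CTCF region lay there for 5.7% of the genes, and a peak of the long Rad21 list for 32.7%. The number of genes grew to 7126 without Rad21 replicate 1, and to 3774 within 5 kb of a gene end. The gene lists below were drawn up with earlier results of these data known, and their shares are to be read against these backgrounds.

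Among genes of CTCF and of the cohesin complex, 3 of 22 had a Rad21 region at an end (13.6%, against 6.68% of all protein-coding genes). A CTCF region lay at 4 of the 22 (18.2%, against 15.3%) and a peak of the long Rad21 list at 11 (50%, against 32.7%). Pds5b, which encodes a cohesin regulator, had a region at chr5:150673558-150673861 with percentiles of 92.1 and 99.9 in the Rad21 libraries, against 30.3 and 99.9 in the CTCF libraries. Smc3, a gene of the ring itself, had 68.8 and 84.9 in the Rad21 libraries, against 89.8 and 97.5 in the CTCF libraries. Stag2, the gene of a subunit that contacts CTCF, had 36.1 and 92.9 in the Rad21 libraries, against 48.6 and 98.7 in the CTCF libraries. In each of these, replicate 2 gave the higher percentile for both factors. The Ctcf gene had a peak in Rad21 replicate 2 (percentile 83.7) and CTCF replicate 2 (97.4) alone, and the Rad21 gene had none in any of the 4 libraries.

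Olfactory transduction turns odorant binding into an electrical signal, and its list here also holds genes of other roles, such as Ckb and Reep1. Of the 20 listed genes, 6 (30%) had a Rad21 region, 4 a CTCF region and 12 a peak of the long list. The shares over all protein-coding genes were 6.68%, 15.3% and 32.7%. Among housekeeping genes, 8 of 16 had a peak of the long list. Ckb, which encodes a brain-type creatine kinase, had percentiles of 68.8 and 98.3 in the Rad21 libraries, against 85.8 and 94.9 in the CTCF libraries. Slc24a4, the gene of a calcium exchanger that helps end the odour response, had 68.8 and 96.0 in the Rad21 libraries, against 9.42 and 86.9 in the CTCF libraries. Ric8b, which encodes a helper of the olfactory G protein, had 36.1 and 91.7 in the Rad21 libraries, no peak in CTCF replicate 1 and 12.6 in CTCF replicate 2. Reep1, a gene linked to the export of odorant receptors to the cell surface, had 17.8 and 78.9 in the Rad21 libraries, no peak in CTCF replicate 1 and 9.33 in CTCF replicate 2. Adcy3, the adenylyl cyclase of this pathway, had a peak in Rad21 replicate 2 (89.5) and CTCF replicate 2 (41.9) but in neither replicate 1, and Omp, whose product marks mature olfactory neurons, had 1 peak of CTCF replicate 2 (38.4) and no Rad21 peak.

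Transcription factor genes of olfactory neurons had a Rad21 region in 2 of 22 cases (9.09%, against 6.68% of all protein-coding genes). A CTCF region lay at 6 of the 22 (27.3%, against 15.3%) and a peak of the long list at 11 (50%, against 32.7%). The region at Ebf3, which encodes a factor of the same family as Ebf1, lay at chr7:137321491-137321808 with percentiles of 96.2 and 99.7 in the Rad21 libraries, no peak in CTCF replicate 1 and 99.2 in CTCF replicate 2. Ebf1 had 64.8 and 92.0 in the Rad21 libraries, against 72.7 and 85.2 in the CTCF libraries. Ebf2 had a CTCF region at an end and no Rad21 peak there, while its body held 3 Rad21 and 6 CTCF regions, and Lhx2 had a peak of Rad21 replicate 2 (51.9) and none of the other 3 libraries.

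Axon guidance genes, which steer olfactory axons to their targets in the bulb, had a Rad21 region in 5 of 24 cases (20.8%). A CTCF region lay at 4 of the 24 (16.7%) and a peak of the long list at 15 (62.5%). Over all protein-coding genes these shares were 6.68%, 15.3% and 32.7%. Sema3f, a secreted guidance cue, had percentiles of 60.4 and 85.4 in the Rad21 libraries, against 23.5 and 73.2 in the CTCF libraries. Plxna1, a semaphorin receptor gene, had 43.3 and 89.5 in the Rad21 libraries, no peak in CTCF replicate 1 and 65.6 in CTCF replicate 2, and the ephrin receptor gene Epha5 had 43.3 and 92.5 in the Rad21 libraries, no peak in CTCF replicate 1 and 38.4 in CTCF replicate 2. Kirrel3, an adhesion gene of olfactory axons, had 27.9 and 90.2 in the Rad21 libraries, against 85.8 and 89.7 in the CTCF libraries, and 5 Rad21 and 8 CTCF regions in its body. Markers of immature neurons had a Rad21 region in 2 of 12 cases, at Ncam1 (given above) and at Gng8, a G protein subunit gene, with 60.4 and 84.3 in the Rad21 libraries, against 61.5 and 85.9 in the CTCF libraries.

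The clustered protocadherins, adhesion genes whose promoters are classical CTCF and cohesin sites, had a Rad21 region in 3 of 57 cases (5.26%). A CTCF region lay at 24 of the 57 (42.1%) and a peak of the long list at 16 (28.1%). Over all protein-coding genes these shares were 6.68%, 15.3% and 32.7%, so that the CTCF share alone lay above. Of the genes with a Rad21 region, Pcdhac1 had percentiles of 94.2 and 94.7 in the Rad21 libraries and 78.6 and 98.1 in the CTCF libraries. Pcdhb16 had 64.8 and 3.59 in the Rad21 libraries and 34.4 and 31.5 in the CTCF libraries. Pcdha2 had 17.8 and 17.1 in the Rad21 libraries, no peak in CTCF replicate 1 and 1.94 in CTCF replicate 2. Hox genes, the body plan regulators, had a Rad21 region in 1 of 39 cases, a CTCF region in 8 and a peak of the long list in 5. The 1 was Hoxb8, with 68.8 and 69.4 in the Rad21 libraries, against 86.9 and 74.8 in the CTCF libraries. Imprinted genes had neither a Rad21 nor a CTCF region in any of 25 cases, and 6 had a peak of the long list, and the imprinted RNA gene H19 had no peak of the 4 libraries within 1 kb of its ends.

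Odorant receptor genes were nearly empty of either factor at their ends, with a Rad21 region at 1 of 1105, which was also the only one with a CTCF region or with a peak of the long list. This was Olfr1373, with percentiles of 93.2 and 92.9 in the Rad21 libraries, against 57.0 and 70.1 in the CTCF libraries. Markers of other cells of the epithelium had a Rad21 region, beside 6.68% of all protein-coding genes, at 0 of 14 basal cell and progenitor genes, at 1 of 15 genes of supporting cells and glands (Hes1, a Notch target) and at 1 of 15 genes of vessels, glia and immune cells (Col1a1, a collagen gene), and a CTCF region in 1, 2 and 3 cases (15.3% of protein-coding genes). Col1a1 had percentiles of 91.0 and 98.6 in the Rad21 libraries, against 99.6 and 99.3 in the CTCF libraries, and Hes1 had 78.3 and 96.2 in the Rad21 libraries, against 23.5 and 90.2 in the CTCF libraries. Housekeeping genes had a Rad21 region in 1 of 16 cases (Sdha, a mitochondrial enzyme gene) and a CTCF region in 3. A peak of the long list lay at 8 of the 16, against 32.7% of all protein-coding genes. Gapdh had 2 peaks of Rad21 replicate 2, none of Rad21 replicate 1, and a CTCF region.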

How the data were processed

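Each library is a peak list that the authors deposited as a BED file with 1 score per peak. Per the submitters' processing notes the tools of the series were HOMER 4.7, Picard, SAMtools 1.3.1, STAR 2.5.3a, Bowtie2 2.3.2 and cutadapt 1.9.1, with the build mm10, listed without roles. On peak thresholds and control input nothing is given in the sources used here, and lists were deposited per library, not pooled. The deposited score is used as a percentile within its list. Chromatin was sheared and 1 library made per sample, per the labels' protocols.

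Peaks were linked into regions by an overlap of 1 base, with reciprocal 50% overlap and centres within 200 bases as alternatives. Gene ends and bodies came from RefSeq (GRCm38.p6, the same coordinates as mm10), leaving out 345 entries that end before 3 Mb (0.6 Mb on Y), which were taken as scaffold coordinates, and 49598 genes were used. The table has no strand, so that starts came from promoter windows, which cover 80.3% of the protein-coding genes. Python 3.11.15, numpy 2.4.6, pandas 2.3.3 and scipy 1.17.1 were used, and the steps were tested on simulated lists. Tests are exact two-sided permutations over libraries, with p = 0.05 as threshold. Intervals (Wilson, 95%) cover counting error only. Named are the 10 strongest regions of each of 3 sets, up to 4 genes per list by their Rad21 region, and 8 genes looked up; 1 named region is not reported here. Members and lists were chosen with earlier results of these data known, and the motif offsets were added after the lists had been looked at.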

Additional observations from a re-analysis of the deposited data

Results flagged for a closer look

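Some peaks lay on unplaced or mitochondrial sequence, outside the chromosomes described above. They were 2 of 10489 peaks in Rad21 replicate 1 and 1 of 28152 in Rad21 replicate 2. In CTCF replicate 1 they were 8 of 27617 and in CTCF replicate 2 they were 7 of 34217. The counts are small and the lists differ in length. The CTCF counts were singled out because they lie in a part of the files that no comparison uses and exceed the 3 peaks that a count of 0 would allow. The cause was not tested.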

How the results depend on the processing

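Shares of regions, the distance between centres and the differences between the factors moved with list length or with the library left out. With lists of 10487 peaks the share of Rad21 regions at a CTCF region was 61.2%, that of CTCF regions at a Rad21 region 61.03%, and the gap along the CTCF bins 35.9 points (53.9 points with the strongest 50% of each list). Leaving out each library in turn gave 58.0 to 95.8%, 27.7 to 65.7%, 66.8 to 77.9 points, and a median distance between centres of 22.5 to 26.5 bases. Of the peaks of the long Rad21 list alone, 38.5% lay at a CTCF region by reciprocal overlap, 53.9% in lists of equal length, and 58.7% at a peak of either CTCF library. The difference (Rad21 minus CTCF) at gene ends turned to -4.27 points with 50% of the matched length and -1.90 points within 5 kb, and ran from -3.65 to 4.08 points without each library. At gene bodies it turned to -2.70 points with 50% of the length and ran from -1.03 to 3.0 points, and the spacing difference ran from -9.03 to 12.2 kb without each library, and was 25.5 kb with the lists as deposited and 12.9 kb with 50% of the length. The motif offset difference kept its direction in all alternatives run, from 16 to 25.5 bases without each library and 19 to 20.75 bases under the other motif, match and strand settings. Genes with a Rad21 region numbered 3774 within 5 kb, 6883 with bodies extended by 10 kb and 1495 to 7126 without each library, and those with a CTCF region 7831, 12305 and 3464 to 6706. With the replicate number as a block the differences were 0.21 points, 0.98 points, 1.59 kb and 20.75 bases, with exact p of 1, 0.5, 1 and 0.5, where 0.5 is the smallest value 2 pairs allow; the numbers are not stated to pair the samples. The causes were not tested beyond the construction of each setting. With 2 libraries a factor and unknown depth, no test here could pass p = 0.05, and shares rest on the authors' thresholds, which may differ between lists.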

Other observations

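The peaks that CTCF replicate 2 held alone lay at gene ends more often than those it shared. Of these 9333 peaks, 41.3% lay within 1 kb of a gene end and 34.1% within 1 kb of a start in the promoter table, against 17.9% and 9.47% of the 24877 peaks it shared with CTCF replicate 1. A control Ldb1 region lay at 11.7% of the peaks of CTCF replicate 2 alone, against 4.04% of the shared ones. A Rad21 peak of either library lay at 40.4% of the peaks of CTCF replicate 2 alone, against 66.8% of the shared ones. The 2732 peaks of CTCF replicate 1 alone ran the other way, with 10.5% within 1 kb of a gene end and 9.81% at a Rad21 peak.

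The 10 CTCF regions on chromosome Y included 3 among the 10 strongest CTCF regions without Rad21, all in or within 1 kb of Gm33272, with percentiles of 99.99 to 100 in CTCF replicate 1 and 98.3 to 98.8 in CTCF replicate 2. No Rad21 region lay on Y.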
